A study of Mus musculus with 10 samples.

Results

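Coagulation and plasminogen activation genes were examined as a set of 10, taken by name: F3, F7, F10, Tfpi, Tfpi2, Thbd, Procr, Plau, Plaur and Plat. All 10 were among the 24538 genes of the count files. No rule on measured values set the choice, but earlier results of these data were known when it was made. Wild type C57BL6/J mice aged 8 to 10 weeks gave 2 macrophage populations for RNA-seq, one sorted from metastases in the lung and the other from normal lung. Metastasis-associated macrophages (MAMs, n = 5 libraries) came from female mice that had received E0771-LG cells, a mouse mammary carcinoma line, by tail vein at 6 to 8 weeks of age. Their metastases were dissected, and the labels give 2 to 4 mice pooled per sample. The study's methods give a wider range that includes a single mouse. Resident alveolar macrophages (RAMs, n = 5 libraries) came from lungs without metastases. Both populations were gated as large cells positive for CD45, F4/80 and MRC1 and negative for LY6C. MAMs were then CD11B positive and CD11C negative, and RAMs were CD11C positive and CD11B negative. Alpha-amanitin and actinomycin D, which block transcription, were present in the digestion buffer of all samples. Metastasis, sorting gate and dissection differed together between the groups, so their parts in any difference cannot be told apart.

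Blood clotting starts when tissue factor, the product of F3, binds factor VII and the complex activates factor X, which turns prothrombin into thrombin. TFPI blocks this complex, and thrombin bound to thrombomodulin activates protein C, a reaction helped by the endothelial protein C receptor. Urokinase and tissue plasminogen activator turn plasminogen into plasmin, which dissolves fibrin, and the urokinase receptor holds urokinase at the cell surface. Macrophages are known to make several of these proteins outside the liver, and tissue factor and urokinase have been studied in tumours.

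Libraries held 55391447 to 87523247 counts on genes in MAMs and 50746305 to 72150650 in RAMs. Levels are given as CPM, counts scaled by the normalised library total over the 11571 genes tested, which had a mean FPKM of at least 1 in either group. The sorting genes followed the gates. Itgam (CD11B) averaged 6270 CPM in MAMs and 64.3 in RAMs, and Itgax (CD11C) averaged 171 and 991. Summed over 10 genes each, alveolar macrophage markers ran from 251 to 555 CPM in MAMs and from 10100 to 12900 in RAMs. Markers of monocyte-derived macrophages ran from 8910 to 10500 CPM in MAMs and from 463 to 643 in RAMs. The lists for lung epithelium, lymphocytes and neutrophils summed to between 4.04 and 50.2 CPM in every library. Early response genes, which tissue dissociation can induce, had sums of 3430 to 3930 CPM (MAMs) and 3320 to 3730 CPM (RAMs), but single genes of the list moved in opposite directions. Of its 16 genes, 8 were higher and 6 lower in MAMs at an adjusted p below 0.05, with Ier3 at 3.70, Hspa1a at 3.43 and Fosb at -2.29 on the log2 scale (edgeR), and their part in the results was not tested. In bulk samples, fewer cells of a type and less RNA per cell cannot be told apart.

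The sequences before the transcription starts of 5 members are shown because these genes took different courses: F3 and Procr rose, F7 fell, F10 rose by less than 2-fold and Plaur did not pass the test. The RefSeq table of promoters on GRCm38.p6 held 7 of the 10 members, with no entry for Thbd, Plau and Plat. Each sequence runs 5′ to 3′ through the 250 bases before the start, on the plus strand. For Procr the first 150 are shown, up to the earlier gene start of GENCODE. Capitals mark matches on either strand to TGANTCA (AP-1), GGGCGG (Sp1) or TATAA (TATA), the motifs found among the 6 searched. The others were ISRE (GAAA, any 2 bases, GAAA), NF-kappa B (GGGA, any base, TTTCC) and PU.1 (GAGGAAGT). The windows lie at chr3:121723287-121723536 (F3), chr2:155750967-155751116 (Procr), chr7:24462233-24462482 (Plaur), chr8:13037058-13037307 (F10) and chr8:13025784-13026033 (F7).
F3: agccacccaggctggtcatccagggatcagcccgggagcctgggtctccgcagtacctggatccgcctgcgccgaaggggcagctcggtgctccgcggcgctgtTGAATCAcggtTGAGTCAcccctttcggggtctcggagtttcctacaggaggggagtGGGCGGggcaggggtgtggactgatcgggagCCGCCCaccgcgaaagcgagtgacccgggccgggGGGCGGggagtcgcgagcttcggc
Procr: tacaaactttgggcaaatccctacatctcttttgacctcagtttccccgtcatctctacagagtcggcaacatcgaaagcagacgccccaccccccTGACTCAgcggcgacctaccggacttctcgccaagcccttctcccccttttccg
Plaur: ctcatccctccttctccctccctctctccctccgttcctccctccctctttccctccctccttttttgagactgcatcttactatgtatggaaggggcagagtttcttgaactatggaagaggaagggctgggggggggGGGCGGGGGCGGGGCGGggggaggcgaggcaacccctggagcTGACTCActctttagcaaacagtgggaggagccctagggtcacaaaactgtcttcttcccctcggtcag
F10: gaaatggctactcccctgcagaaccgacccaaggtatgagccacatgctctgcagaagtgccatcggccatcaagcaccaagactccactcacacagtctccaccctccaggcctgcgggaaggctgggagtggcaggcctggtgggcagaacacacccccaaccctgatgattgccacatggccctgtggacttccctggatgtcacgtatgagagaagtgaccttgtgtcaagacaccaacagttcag
F7: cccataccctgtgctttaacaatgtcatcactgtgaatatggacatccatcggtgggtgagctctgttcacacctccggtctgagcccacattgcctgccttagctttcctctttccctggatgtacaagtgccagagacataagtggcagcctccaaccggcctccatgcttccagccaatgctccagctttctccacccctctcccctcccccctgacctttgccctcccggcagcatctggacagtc

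TGANTCA occurred at a pair of places before F3, as TGAATCA from base -146 and as TGAGTCA from base -135, counting from the RefSeq start base as 0. Procr held TGACTCA from base -154 and Plaur held TGACTCA from base -69. F7, F10 and Tfpi had no match in the 300 bases of their table entries, and Tfpi2 had 1, in the third of its 3 entries. Of all 32851 promoters of the same length, 7.81% held TGANTCA. The Sp1 motif stood 3 times before F3 and 3 times before Plaur, where the last pair of matches share 1 base, and 35.7% of all promoters held it. TATAA (24.9% of all promoters) was matched in F3 at base 45 after the start, outside the bases shown, and in the first Tfpi entry. ISRE was held by 3.44% of all promoters, NF-kappa B by 0.411% and PU.1 by 3.2%, and no entry of a member held any of them. These matches are a description of letters, and binding was not measured.

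Of the 8 members that passed the filter on FPKM, 3 were higher in MAMs (F3, Procr and Plau) and 1 was lower (F7), by more than 2-fold at an adjusted p below 0.05. Among all 11571 genes tested, 15.3% were higher and 15.1% lower by the same call, 30.3% in either direction. A further pair of members passed the adjusted p alone, F10 higher and Tfpi lower, while Thbd and Plaur did not. The shares of all genes past the adjusted p were 28.9% higher and 27.3% lower. The median log2 fold change was 0.34 over the 8 members tested and -0.02 over all genes. The groups did not overlap for 4 members, against 44.9% of all genes tested. Plat fell below the filter, and Tfpi2 had no counts. F3 passed the filter through MAMs alone, the group where it was higher, with a mean FPKM under 1 in RAMs.

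**Figure D1:**
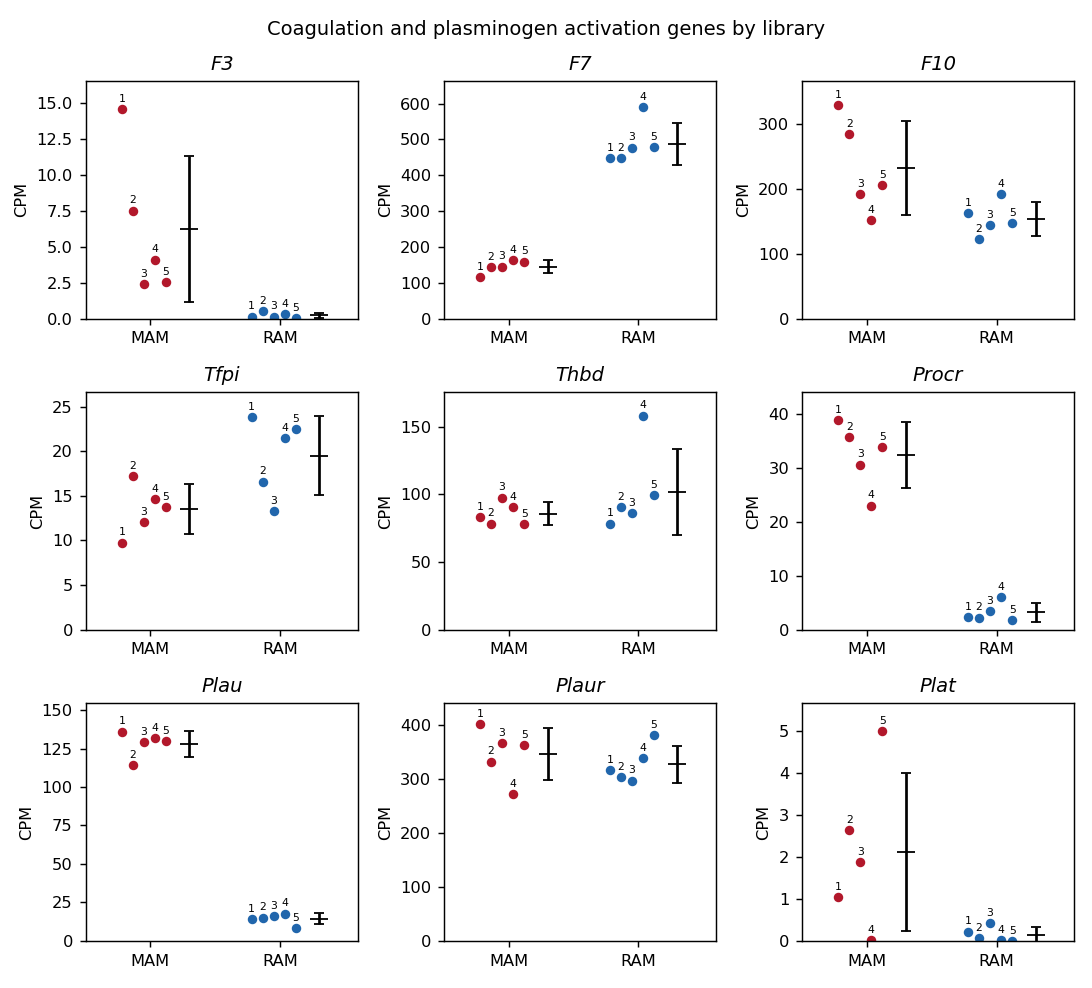
Levels in CPM (vertical axes, each starting at 0) of the 9 members with counts, in the 5 MAM libraries (red) and the 5 RAM libraries (blue), numbered by replicate, with the mean and SD as a bar to the right of each group, cut at 0 for Plat. F3, Procr and Plau lay higher in every MAM library than in any RAM library and F7 lay lower, while the groups overlapped for F10, Tfpi, Thbd, Plaur and Plat.

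F3 encodes tissue factor and lies on chromosome 3 from 121723537 to 121735048 (GRCm38, plus strand, 6 exons). It measured 14.6, 7.53, 2.39, 4.11 and 2.54 CPM in MAM replicates 1 to 5. In RAM replicates 1 to 5 it measured 0.137, 0.511, 0.145, 0.292 and 0.0213 CPM. All MAM libraries were above all RAM libraries, and MAM 1 stood at 6.08 times the lowest MAM library. The counts behind these levels were 107 to 716 in MAMs and 1 to 34 in RAMs. The log2 fold change was 4.78 (standard error 0.762, 95% interval 3.15 to 6.41, adjusted p = 7.1e-05, quasi-likelihood test of edgeR, Benjamini-Hochberg adjustment). F3 was thus called higher from a low level, with mean FPKM of 3.22 ± 2.31 (SD, n = 5) in MAMs and 0.106 ± 0.0633 in RAMs. On log2(FPKM + 1) the difference was 1.78. Leaving out MAM 1 gave a log2 fold change of 4.19, and leaving out RAM 2 gave 5.35, both still called.

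Cells other than macrophages can carry tissue factor, so their markers are given beside F3. Both populations were gated on CD45, and how many cells of other types passed the gate is not known. The 8 stromal markers summed to 45.8, 8.21, 38.4, 10.5 and 24.8 CPM in MAM replicates 1 to 5 and to 3.77 to 9.96 in RAMs. MAM 1 was highest in both F3 and this sum, whereas MAM 2, second in F3, was lowest in the sum. Col1a1 measured 13.1, 0.206, 10.6, 0.271 and 1.9 CPM in MAM replicates 1 to 5. Col3a1 was also highest in MAM 1 among MAMs. Other stromal markers went other ways, with Col1a2 (6.44 CPM), Dcn (3.24) and Pdgfra (8.21) highest in MAM 3. Pdgfra was lowest in MAM 1 (1.55 CPM). Pdgfrb (3.07 CPM) and Acta2 (10.6) were highest in MAM 5, and Lum was at 0 in every MAM library. The 10 epithelial and tumour markers summed to 6.06 to 22.9 CPM in MAMs, with MAM 1 highest, and to 440 to 569 in RAMs, where Krt19 and Epcam made up most of the sum. Cldn3 was at 0 in all libraries. Krt18 measured 8.84 CPM in MAM 1 and at most 0.201 in the other MAM libraries. Krt19 (10.9 CPM) and Elf3 (0.691) were also highest in MAM 1 among MAMs. Krt7 was highest in MAM 2 (0.806 CPM), and Krt8 (3.31) and Epcam (0.827) in MAM 3. Cldn7 was highest in MAM 4 (0.0905 CPM) and Wfdc2 in MAM 5 (1.15). The part of these cells in the F3 level was not tested. The RAM level of F3 was 3.55% of the MAM level.

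F7 encodes factor VII, the protease that tissue factor binds. It measured 115, 144, 145, 163 and 159 CPM in MAM replicates 1 to 5. The RAM libraries, in the same order, measured 447, 447, 477, 590 and 479 CPM. F7 was lower in every MAM library than in any RAM library, and its values within a group lay close together except for RAM 4. For F7 the log2 fold change was -1.75 (standard error 0.106, 95% interval -1.97 to -1.52, adjusted p = 1.7e-09, edgeR). F7 stood at FPKM rank 182 of the 11571 tested genes in RAMs and at rank 921 in MAMs. Its mean level was 3.36 times higher in RAMs. Without RAM 4 the log2 fold change was -1.67.

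F10 encodes factor X, which the tissue factor and factor VII complex cleaves. It measured 328, 284, 191, 151 and 205 CPM in MAM replicates 1 to 5. RAM replicates 1 to 5 gave 162, 122, 144, 192 and 147 CPM. MAM 1 and MAM 2 were the highest of all libraries, and MAM 3 and MAM 4 lay at or below RAM 4. F10 rose by 0.60 on the log2 scale (standard error 0.181, 95% interval 0.21 to 0.98, adjusted p = 0.011, edgeR), a change of less than 2-fold. It was 0.44 without MAM 1, 0.72 without MAM 4 and 0.43 under upper-quartile scaling, and the adjusted p stayed under 0.05 in each of these.

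F7 and F10 are neighbours on chromosome 8, on the plus strand, at 13026034 to 13035809 and 13037308 to 13056676 (GRCm38). The annotation leaves 1498 bases between the end of F7 and the start of F10, and neither overlaps another annotated gene. Although adjacent and read in the same direction, F7 was lower in MAMs and F10 was higher. Per length, the ratio of F10 to F7 in FPKM was 2.17, 1.49, 0.989, 0.666 and 0.950 in MAM replicates 1 to 5. In RAMs the ratio ran from 0.187 to 0.253 with a mean of 0.220 ± 0.0251 (SD, n = 5), against 1.25 ± 0.591 in MAMs. The ranges did not overlap. Among MAMs, F10 CPM varied by up to 2.17 times between libraries and F7 by up to 1.42 times. Proz, which encodes protein Z and starts at 13060914 after F10, measured 1.39 to 4.96 CPM in MAMs, compared with 2.61 to 13.9 in RAMs.

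**Figure D2:**
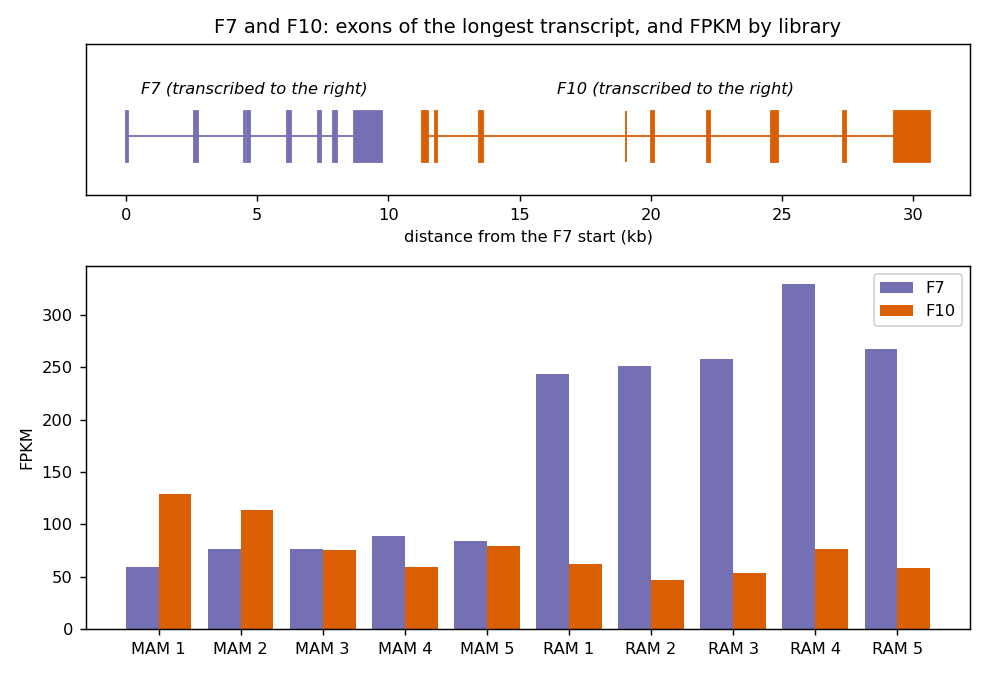
Upper panel, exons (boxes) of the longest transcripts of F7 and F10 against the distance from the F7 start in kb; lower panel, FPKM of both genes in each library (bars from 0). F7 exceeded F10 in all 5 RAM libraries by a wide margin, whereas among MAMs F10 was ahead in MAM 1 and MAM 2, behind in MAM 4, and close to F7 in MAM 3 and MAM 5.

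Tfpi encodes tissue factor pathway inhibitor and lies on chromosome 2 (84432855 to 84476775, minus strand). It measured 9.76, 17.2, 12.1, 14.6 and 13.7 CPM in MAM replicates 1 to 5. The levels in RAM replicates 1 to 5 were 23.8, 16.6, 13.3, 21.5 and 22.5 CPM. RAM 2 and RAM 3 lay within the MAM range, and the other RAM libraries lay above it. The log2 fold change was -0.53 (standard error 0.209, 95% interval -0.98 to -0.09, adjusted p = 0.0412, edgeR). This passed the adjusted p narrowly, and it was missed when MAM 1, 3, 4 or 5 or RAM 1, 4 or 5 was left out, where the adjusted p ran up to 0.107. On log2(FPKM + 1) the difference was -0.26 (adjusted p = 0.183, limma). Tfpi2, a related inhibitor on chromosome 6, had 0 counts in all 10 libraries, which allows up to 3 counts in a library, or 0.0431 to 0.0671 CPM.

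Thbd encodes thrombomodulin, which turns thrombin towards protein C, and is a gene of 1 exon on chromosome 2 (148404466 to 148408188, minus strand). It measured 83.4, 78.4, 97.5, 90.7 and 77.9 CPM in MAM replicates 1 to 5. RAM replicates 1 to 5 had 78.3, 90.7, 86.0, 158 and 99.2 CPM. RAM 4 was the highest library by far, and the remaining libraries of both groups overlapped. The log2 fold change of -0.26 did not pass (95% interval -0.60 to 0.09, adjusted p = 0.19, edgeR), and without RAM 4 it was -0.05. Under upper-quartile scaling, which moved the median of all genes by -0.16, it was -0.42 with an adjusted p of 0.036.

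Procr encodes the endothelial protein C receptor and lies on chromosome 2 (155751117 to 155755471, plus strand). It measured 38.9, 35.7, 30.6, 23.0 and 33.9 CPM in MAM replicates 1 to 5. The corresponding RAM levels were 2.38, 2.27, 3.42, 6.11 and 1.85 CPM. The lowest MAM library was above the highest RAM library, RAM 4. Procr rose by 3.34 on the log2 scale (standard error 0.312, 95% interval 2.67 to 4.01, adjusted p = 2.5e-07, edgeR), a ratio of mean CPM of 10.1. The log2 fold change was 3.70 without RAM 4. Within the protein C branch, the FPKM ratio of Procr to Thbd was 0.644 to 1.24 in MAMs and 0.0549 to 0.111 in RAMs.

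Thbd, Procr and Tfpi are also known from endothelium, and its markers are given beside them. The 10 endothelial markers summed to 67.7 to 137 CPM in MAMs against 95.6 to 117 in RAMs, with MAM 4 highest and MAM 1 lowest. Procr ran the other way in these libraries, highest in MAM 1 and lowest in MAM 4. Calcrl made up most of the sum in RAMs, at 89.2 to 101 CPM, and the other 9 markers summed to 22.4 to 93.2 CPM in MAMs against 6.35 to 15.9 in RAMs. Of these 9, Cdh5 (4.82 to 10.8 CPM in MAMs, 0.994 to 5.14 in RAMs), Pecam1 (4.43 to 30.8 and 0.518 to 4.71) and Kdr (12.1 to 54.3 and 0.21 to 1.92) were called higher in MAMs. The other 6 fell below the filter. Mean levels of Tek (0.439 CPM in MAMs, 0.752 in RAMs), Tie1 (0.149 and 0.187) and Esam (0.364 and 1.52) were lower in MAMs. Cldn5 was too, at 0 in every MAM library. Those of Emcn (0.0929 and 0.0783) and Ramp2 (0.394 and 0.243) were higher in MAMs. In MAM 4, Kdr at 54.3 CPM exceeded Procr at 23.0. The part of endothelial RNA in Procr, Thbd and Tfpi was not tested.

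Plau encodes urokinase, the plasminogen activator of invading cells, and lies on chromosome 14 (20836660 to 20843385, plus strand, 11 exons). It measured 136, 114, 129, 132 and 130 CPM in MAM replicates 1 to 5. Levels in the RAM libraries were 14, 15.1, 16.3, 17.7 and 8.31 CPM. The MAM libraries were nearly level, within 1.2 times of each other, and every one was above all RAM libraries. Plau rose by 3.17 on the log2 scale (standard error 0.170, 95% interval 2.80 to 3.53, adjusted p = 4.2e-10, edgeR), a ratio of mean CPM of 8.98.

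Plaur encodes the urokinase receptor, and lies on chromosome 7 (24462484 to 24475968, plus strand). It measured 401, 332, 366, 272 and 362 CPM in MAM replicates 1 to 5. In RAM replicates 1 to 5 it measured 316, 303, 297, 339 and 381 CPM. The groups overlapped throughout, and MAM 4 was the lowest of all libraries. The log2 fold change of 0.08 did not pass (95% interval -0.14 to 0.30, adjusted p = 0.513, edgeR), and it was -0.08 under upper-quartile scaling. The interval lay inside a 2-fold change in either direction. The enzyme and its receptor therefore took different courses, with the FPKM ratio of Plau to Plaur at 0.215 to 0.333 in MAMs and 0.0170 to 0.0422 in RAMs.

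Plat, which encodes tissue plasminogen activator and lies on chromosome 8 (22757727 to 22782844, plus strand), was too low for the filter. Its counts were 51, 141, 84, 1 and 347 in MAM replicates 1 to 5. RAM replicates 1 to 5 had 13, 4, 20, 1 and 0 counts. MAM 4 had as few counts as RAM 4, so the groups overlapped, and MAM 5 held most of the MAM total of 624. Without the filter the log2 fold change was 3.89 (standard error 1.23, 95% interval 1.29 to 6.49, adjusted p = 0.0171, edgeR), where 13% of 18035 genes were called higher. An exact two-sided permutation test of the CPM gave p = 0.0397, unadjusted and 1 of 9 such tests of members (smallest p allowed 0.00794).

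Levels can be set between genes only per length, as FPKM. In MAMs the order was Plaur (238), F10 (91.4), F7 (77.0), Plau (57.0), Thbd (24), Procr (23.6), Tfpi (5.45), F3 (3.22) and Plat (0.804). The ranges over libraries overlapped between F10 and F7, F7 and Plau, Thbd and Procr, Tfpi and F3, and F3 and Plat, so these neighbours cannot be ordered. In RAMs it was F7 (270), Plaur (200), F10 (59.5), Thbd (28.7), Tfpi (6.79), Plau (6.60), Procr (2.41), F3 (0.106) and Plat (0.0309). There the overlaps were between Tfpi and Plau, Plau and Procr, and F3 and Plat. Plaur was among the most abundant transcripts of both populations, at rank 289 of 11571 in MAMs and 257 in RAMs. F7 headed the order in RAMs, and in MAMs its range overlapped those of F10 and Plau. Plau moved from rank 6902 to rank 1316 and Procr from 9329 to 3111. The FPKM ratio of F3 to its inhibitor Tfpi was 0.225 to 1.80 in MAMs, with MAM 1 highest, and 0.00285 to 0.0379 in RAMs.

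**Figure D3:**
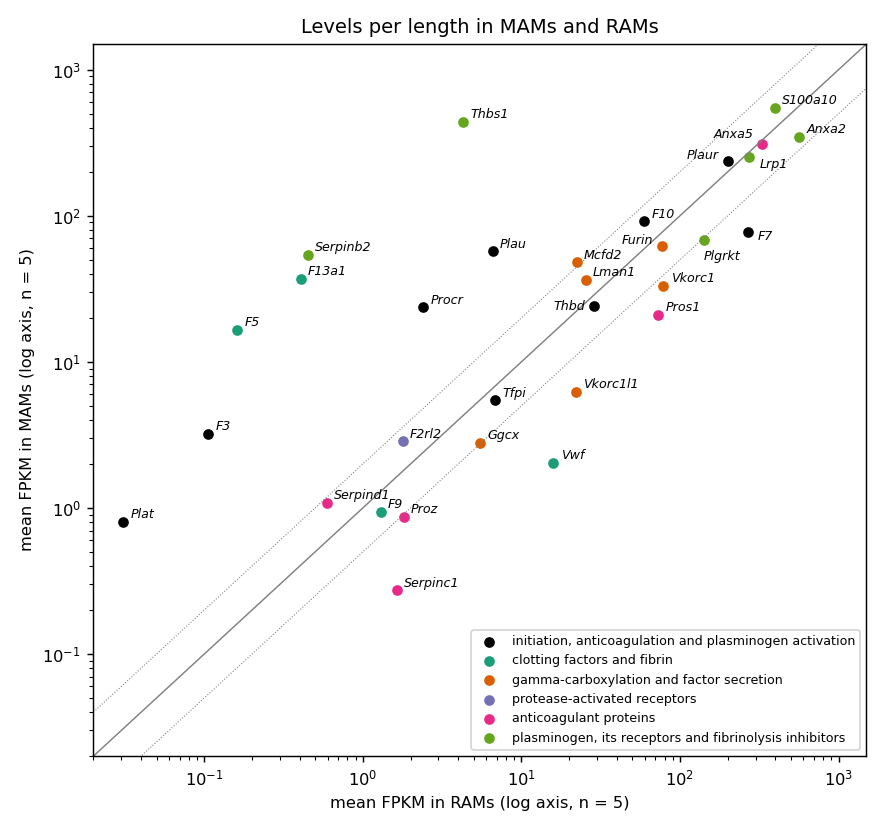
Mean FPKM in MAMs (vertical, log axis) against mean FPKM in RAMs (horizontal, log axis) for the members above 0 (black) and the tested genes of 5 further lists (colours), with lines of equal level (solid) and of a 2-fold difference (dotted). F3, Procr, Plau and Plat lie above the upper dotted line and F7 below the lower one, while Plaur, F10, Thbd and Tfpi lie between them.

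Among MAM libraries, replicate 1 was highest for 5 of the 9 detected members (F3, F10, Procr, Plau and Plaur) and lowest for F7 and Tfpi. Replicate 4 was lowest for 4 members (F10, Procr, Plaur and Plat). Among RAM libraries, replicate 4 was highest for 5 members (F7, F10, Thbd, Procr and Plau), and replicate 5 was lowest for F3, Procr, Plau and Plat. How often each library was highest or lowest over all genes tested was not counted. Marco, a scavenger receptor gene in the alveolar macrophage list, was also highest in MAM 1 (389 CPM) and lowest in MAM 4 (89.7 CPM) among MAMs, whereas the other 9 markers of that list summed to 166 and 161 CPM there and to 144 to 177 over all MAM libraries.

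The wider pathway was read from 47 further genes in 5 lists, of which 22 passed the filter. Of these, 5 were higher in MAMs and 6 lower by the same call, which 15.3% and 15.1% of all genes tested passed, with a median log2 fold change of -0.19. Another 10 had no counts in any library: the fibrinogen genes Fga, Fgb and Fgg, Kng1, Kng2, Proc, Serpina5, Serpina10, Plg and Hrg. The liver is known as the main source of fibrinogen, protein C and plasminogen. Plasminogen, the substrate of urokinase, and protein C, the ligand of the Procr product, were thus not detected as transcripts at this depth in either population. Among the 22 genes tested, F5, F13a1, Serpinb2 and Serpind1 passed the filter through MAMs alone, and F9, Proz and Serpinc1 through RAMs alone.

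Of 15 clotting factor and fibrin genes, 4 were tested, and 2 were higher and 1 lower (all genes tested, 15.3% and 15.1%). F5 encodes factor V, which once activated is the cofactor of activated factor X. F5 measured 60.1 to 214 CPM in MAMs, compared with 0.771 to 1.51 in RAMs (log2 fold change 6.91, adjusted p = 2.2e-10, edgeR). F13a1, the subunit of factor XIII that cross-links fibrin, measured 106 to 215 CPM in MAMs against 1.07 to 3.01 in RAMs (log2 fold change 6.62). Vwf, the von Willebrand factor that tethers platelets, measured 125 to 207 CPM in RAMs and 6.36 to 25.6 CPM in MAMs. Vwf fell by 2.97 on the log2 scale (adjusted p = 3.9e-07, edgeR). F9, the factor IX gene, did not pass (log2 fold change -0.48, adjusted p = 0.57), and was -1.60 with an adjusted p of 0.027 without MAM 5. Platelet RNA can carry F13a1, and the 12 platelet markers summed to 356 to 1050 CPM in MAMs, compared with 36.9 to 50.9 in RAMs. Nearly all of the MAM sum was Pf4 (274 to 789 CPM) and Ppbp (70.8 to 255), and Itga2b was at 0.356 to 4.74 CPM in MAMs against 1.13 to 6.38 in RAMs. The part of platelets was not tested.

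All 6 genes for gamma-carboxylation and secretion of clotting factors were tested, and 1 was higher and 2 lower (all genes tested, 15.3% and 15.1%). F7 and F10 are vitamin K-dependent proteins that need this modification. Vkorc1 and Vkorc1l1, which recycle vitamin K, fell by 1.26 and 1.83 on the log2 scale. Vkorc1 measured 14 to 22.3 CPM in MAMs, compared with 38.4 to 50.2 in RAMs, and Vkorc1l1 measured 30.6 to 41.4 and 116 to 136. Ggcx, the carboxylase itself, had a log2 fold change of -0.97, short of the fold of 2, with no overlap between groups (7.80 to 15.4 CPM in MAMs against 19.9 to 28.3 in RAMs). Mcfd2, which carries factors V and VIII out of the endoplasmic reticulum with Lman1, rose by 1.14 (77.3 to 132 CPM in MAMs, compared with 43.2 to 60.4 in RAMs). In a test against a fold change of 2, neither Mcfd2 (adjusted p = 0.232) nor Vkorc1 (adjusted p = 0.0573, edgeR) passed. Lman1 (0.46) and the protease gene Furin (-0.32) changed by less than 2-fold.

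Of 8 anticoagulant protein genes, 5 were tested, and 3 were lower (all genes tested, 15.1%). Pros1, which encodes protein S, the cofactor of activated protein C, measured 54.0 to 112 CPM in MAMs against 264 to 292 in RAMs. Pros1 fell by 1.80 on the log2 scale (adjusted p = 4.4e-08, edgeR), opposite to Procr. Serpinc1 (antithrombin) fell by 2.62 from a low level, with 0.359 to 1.92 CPM in MAMs, compared with 2.69 to 8.62 in RAMs. Proz fell by 1.35 with overlapping groups, did not pass against a fold change of 2 (adjusted p = 0.351, edgeR), and its adjusted p of 0.0274 rose above 0.05 when MAM 1, 2 or 3 or RAM 2 or 3 was left out (up to 0.0988). Serpind1 (0.39) and Anxa5 (-0.05) did not pass. Of the 4 protease-activated receptors only F2rl2 was tested, and it did not pass (log2 fold change 0.48, adjusted p = 0.246, edgeR), while F2r, F2rl1 and F2rl3 had at most 154 counts in any library.

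Of 14 genes for plasminogen, its receptors and inhibitors of fibrinolysis, 6 were tested, and 2 were higher and none lower by more than 2-fold. By the same call, 15.3% of all genes tested were higher and 15.1% lower. Serpinb2, the plasminogen activator inhibitor PAI-2, measured 203, 205, 93.5, 37.7 and 88.5 CPM in MAM replicates 1 to 5 and 0.788 to 1.23 in RAMs. The product of Serpinb2 inhibits urokinase, and both genes rose in MAMs. Thbs1, the matrix protein thrombospondin, measured 2490 to 2970 CPM in MAMs against 22.6 to 28.6 in RAMs (log2 fold change 6.74). Of the plasminogen-binding proteins, Plgrkt (-0.98) and Anxa2 (-0.67) were lower and S100a10 (0.50) was higher, each with an adjusted p under 0.05 and less than 2-fold. Lrp1, the receptor that clears urokinase bound to its inhibitors, did not pass, with 3100 to 4030 CPM in MAMs against 3350 to 3740 in RAMs (log2 fold change -0.01).

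The RAM levels of F5, F13a1, Serpinb2 and Thbs1 were 0.834%, 1.01%, 0.779% and 0.938% of the MAM levels. Among the 115 genes above 1000 CPM in MAMs, the lowest RAM share was 0.912% (C1qb). The RAM shares of these 4 genes lay near that value, F5 and Serpinb2 below it and F13a1 and Thbs1 above it. The RAM shares of Procr (9.89%) and Plau (11.1%) were larger. Whether reads from MAMs reached RAM libraries was not tested. None of the 10 members overlaps another annotated gene, but among the tested genes of the wider lists F5, F13a1, Serpinb2, Thbs1, Vkorc1, Vkorc1l1, Serpinc1, Furin, F2rl2, Serpind1, Anxa5, Anxa2 and Lrp1 do, and the counting setting for strand is not stated.

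**Figure D4:**
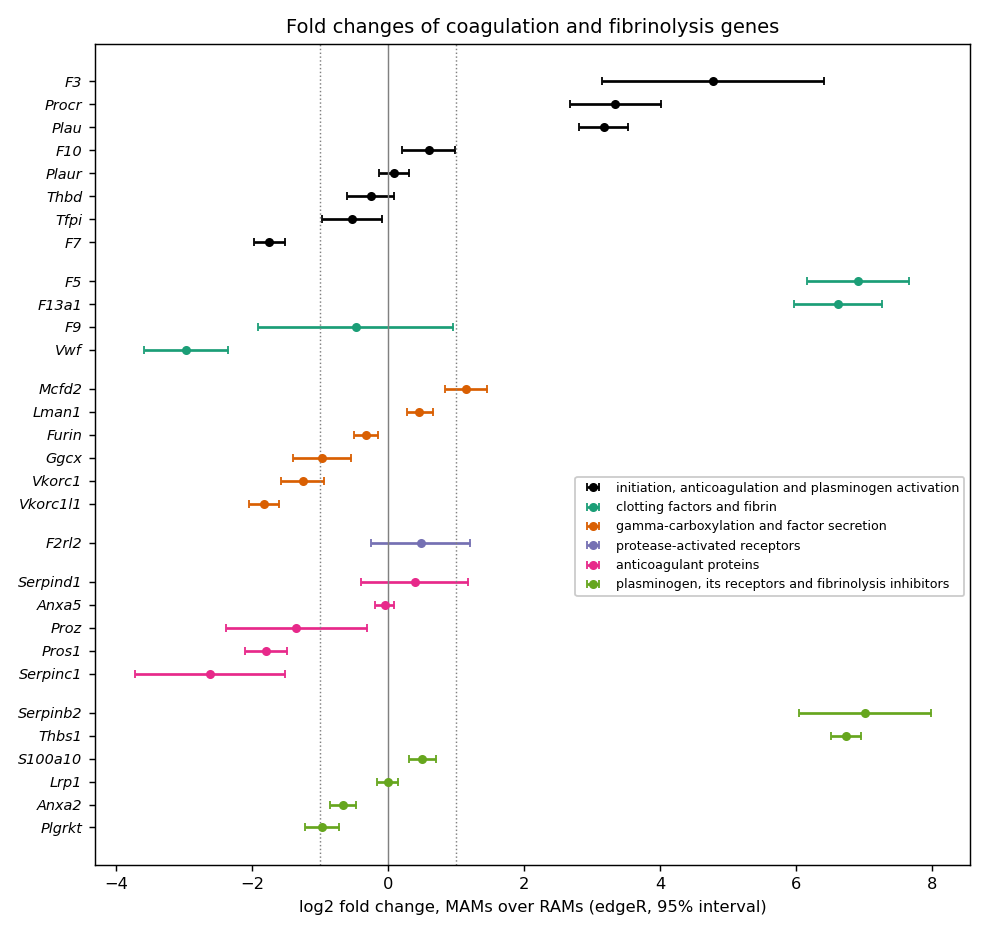
Log2 fold changes of MAMs over RAMs (horizontal axis) with 95% intervals from edgeR for the 8 tested members (black) and the 22 tested genes of 5 further lists (colours), with dotted lines at a 2-fold difference. F3, Procr and Plau stand right of the dotted lines at 4.78, 3.34 and 3.17 and F7 left at -1.75, and F5, F13a1, Serpinb2 and Thbs1 stand farthest right, between 6.62 and 7.01.

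The tested genes most like each member were found by Pearson's r of log2 CPM over the 10 libraries, as a description. For members that differed between groups, r is set largely by the group difference that the genes share. They were Setd2 (0.986) and Atp8a1 (0.982) for F3, Iqsec1 (0.996) and Xpr1 (0.995) for F7, Pilrb1 (0.995) and Ptk2 (0.994) for Procr, and Arhgap12 and Stx4a (both 0.997) for Plau. For F10 they were Sptbn1 (0.962) and Irf4 (0.950), and for Tfpi Pter (0.937) and Pola2 (0.932). For Thbd they were 1190005I06Rik and Tnfsfm13 (both 0.907), and for Plaur Cfap45 (0.891) and Mkks (0.877). No other member was among the 2 most alike of any member.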

How the data were processed

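The authors built libraries from total RNA of sorted macrophages with the Ovation RNA-Seq System V2 and sequenced paired reads. Per the submitters' processing notes, TopHat2 2.0.13, HTSeq 0.6.1, Cufflinks 2.2.1 and DESeq2 1.6.3 were used on mm10 (GRCm38). The authors deposited raw counts per gene, made with HTSeq on UCSC RefGene models, and FPKM values from Cufflinks, which divide by transcript length and mapped fragments. The strand setting is not given in the sources used here. Libraries were grouped as MAMs or RAMs from their titles and sorting markers. The study's methods describe a sample as a single mouse or as pooled metastases, and the labels do not name the mice of each library.

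Lines of the count files that name no gene held 56.5% ± 1.65 of the summed counts in MAMs and 63.2% ± 0.898 in RAMs (SD, n = 5) and were left out. No library pair was identical, and 0 columns were unmapped. A gene was tested where it had any count and its FPKM averaged 1 or more over MAMs or over RAMs, 11571 genes in all. MAMs were compared with RAMs by the quasi-likelihood F-test of edgeR 4.0.16 (R 4.3.3), with TMM normalization, no covariates and Benjamini-Hochberg adjustment over all genes tested. A call needed more than a 2-fold difference and an adjusted p below 0.05. CPM are counts scaled by the TMM-normalised total of tested genes. Log2 CPM used a prior count of 2. Single levels were compared with exact two-sided permutation tests (scipy 1.17.1). Intervals are at 95%. A count of 0 allows up to 3 counts, and this limit and counts without molecular identifiers cover counting error only. The fits were checked on simulated counts.

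The members and lists were chosen with earlier results of these data known, and 1 gene of the lists is not reported here. All members, the genes of the 5 wider lists that passed the filter, sorting markers, the 2 most abundant genes of each cell type list and the 2 genes most like each member could be named. Other marker genes named were chosen after their values were seen. Alternatives were DESeq2 1.42.0, RLE and upper-quartile scaling, no filter, filterByExpr, the replicate number as a block, each library left out, edgeR's test against a 2-fold change, and limma 3.58.1 on log2 FPKM with 1 or 0.1 added. Subtracting 1% of the other group's level was chosen after seeing the data. Positions came from GENCODE M21 on GRCm38 and promoters from RefSeq on GRCm38.p6.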

Additional observations from a re-analysis of the deposited data

Results flagged for a closer look

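Each detected member and each tested gene of the wider lists was examined for a library far from the others of its group, in 62 groups of 5 libraries. The gap to the nearest library was set against the whole range of the group (Dixon's criterion), which chance exceeds in about 1 in 20 groups, and 5 groups exceeded it. F7 measured 590 CPM in RAM 4, against 447 to 479 in the other RAM libraries. Thbd measured 158 CPM in RAM 4, against 78.3 to 99.2. Vwf also stood apart in RAM 4, at 207 CPM against 125 to 147. Furin measured 327 CPM in RAM 5, against 259 to 278. Anxa2 measured 895 CPM in RAM 1, against 636 to 705. The calls for F7 and Vwf did not depend on RAM 4, since the log2 fold change without it was -1.67 for F7 and between -3.09 and -2.75 for Vwf over all libraries left out in turn. For Thbd the log2 fold change went from -0.26 to -0.05 without RAM 4, and neither passed.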

How the results depend on the processing

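Across all alternatives, F3, Procr and Plau stayed called higher and F7 lower. Of 160 refits of the 8 tested members, 144 kept direction and side of the threshold, 14 lost it (13 of them Tfpi, and F10 against a fold change of 2), Thbd passed it once under upper-quartile scaling, and Plaur turned to -0.08 there. Of 440 refits of wider list genes, 414 stayed, 17 lost and 4 gained the threshold, and Lrp1 turned sign in 5, at 0.01 without a filter and with filterByExpr and at 0.01 to 0.03 without MAM 1, MAM 2 or RAM 5 (from -0.07 to 0.03 over all libraries left out). With libraries left out in turn, genes called ran from 1728 to 1763 higher and 1656 to 1736 lower, members stayed at 3 and 1, and wider list genes at 5 higher and 5 to 8 lower. The genes called were 1766 higher and 1745 lower, and 1399 and 1112 in a test against a fold change of 2. Upper-quartile scaling moved the median of all genes by -0.16 and gave 1555 and 2058. Subtracting 1% of the other group's level, chosen after seeing the data, raised F3 to 5.18 and F5, F13a1, Serpinb2 and Thbs1 to between 9.02 and 15.73, since their RAM counts fell to near 0. Where the cause of a change is not stated, the cause was not tested.

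Groups shared replicate numbers, but same-numbered libraries did not deviate together (correlations of -0.0366 to 0.0294, own number highest for 2 of 5). These correlations cannot show how the libraries were numbered or run, and the labels state no pairing. With the replicate block, 1753 genes were called higher and 1773 lower, 3 members higher and 1 lower, and 5 wider list genes in each direction. F3 was 4.83, Tfpi missed the threshold (adjusted p = 0.0704) and Proz did too (adjusted p = 0.11).

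Depth limits Plat and F3 in RAMs, at 0 to 20 and 1 to 34 counts, and Tfpi2, at 0.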

Other observations

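Several clotting genes known as liver products had low counts in RAMs and fewer in MAMs, all below the filter. F2 (prothrombin) had 237, 175, 273, 35 and 95 counts in RAM replicates 1 to 5 and 7, 21, 52, 8 and 103 in MAMs. F11 had 74, 49, 51, 0 and 50 counts in RAMs and 1 count in MAM 1 alone among MAMs. F13b had 30, 18, 21, 0 and 7 counts in RAMs and none in MAMs. Klkb1 (prekallikrein) had 69 to 278 counts in RAMs and 3 to 142 in MAMs. In the fit without a filter, F2 (adjusted p = 0.036), F11 (adjusted p = 0.002) and F13b (adjusted p = 0.0112) were called lower in MAMs by edgeR, and Klkb1 was not (adjusted p = 0.0548). That fit called 2323 of all 18035 genes lower. Of the other clotting genes below the filter, F8 (adjusted p = 0.667) and F12 (adjusted p = 0.378) were not called by edgeR, and Fga, Fgb, Fgg, Kng1 and Kng2 had no counts. RAM 4 was lowest of the RAMs for F2, F11, F13b and Klkb1, opposite to F7, for which it was highest.

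MAM 1 and MAM 2 were the highest of the MAM libraries in 9 of the 31 member and wider list genes examined, namely F3, F10, Procr, F5, Lman1, Furin, F2rl2, Pros1 and Serpinb2. MAM 4 was the lowest in 8 of those 9, all but F3. These orders were noticed after the values were seen and no test was made of them. They were not set against the orders of all genes tested.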
